A study of Arabidopsis thaliana with 10 samples.

Results

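The jasmonate-insensitive mutant coi1 of Arabidopsis thaliana was compared with wild type in leaves at growth stage 6.0. The comparison rests on 4 of the 10 arrays of the series, chosen by their labels, with 2 coi1 arrays set against 2 wild type arrays. Each array was an Affymetrix chip with 22810 probe sets hybridised with RNA of fully expanded leaves. The series asks how mutants in stress response pathways alter expression while leaves senesce. It also holds 2 ein2 arrays and 2 NahG arrays of stage 6.0 and 2 wild type arrays of stage 3.9.

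Jasmonates are oxylipin hormones made from plastid fatty acids in response to wounding, necrotrophic pathogens and ageing. Their active conjugate, jasmonoyl-isoleucine, binds the F-box protein COI1 together with a JAZ repressor, and the repressor is then degraded. MYC transcription factors freed in this way switch on defence genes, as well as genes that make jasmonate and genes that inactivate it. In coi1 plants this step is missing, so they are widely used to ask which transcripts need jasmonate perception.

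The labels call the coi1 plants transgenic and place them in the Columbia background, and they give no allele. The ein2 plants, known as ethylene-insensitive, carry the same kind of label. They also carry the same stock code as the coi1 plants, so the origin of both rests on conflicting labels. NahG plants, also in the Columbia background, express a bacterial enzyme that degrades salicylic acid. The 2 wild type arrays of stage 6.0 carry different Columbia stock codes, which the 2 of stage 3.9 carry in the same order. The title and the source name of array 2 of stage 6.0 name different lines. All 10 samples were fully expanded leaves. On the scale commonly used for this plant, stage 3.9 marks the full rosette and stage 6.0 the first open flower. The labels do not say whether the 2 coi1 arrays came from separate plants, so the spread between them may be technical. P-values rest on a spread shared by all 10 arrays in 5 groups, including the wild type pairs of different stock codes. The probe sets of COI1 and EIN2 are unnamed here, and the mutated genes were not checked.

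Signals were linear MAS5 intensities on a scale where the middle of each array averages 100, and array medians at stage 6.0 lay between 35.3 and 46.1. The 2 coi1 arrays correlated at 0.983 on the log2 scale and the 2 wild type arrays at 0.969, against 0.962 to 0.967 between the genotypes. Leaf markers were bright, with Rubisco activase (RCA) at 2245.1 and 3029.1 in coi1 and at 1815 and 2422.1 in wild type. The 3' to 5' ratio of the ubiquitin control, a sign of RNA quality, was 2.164 and 2.046 in coi1 and 1.685 and 1.815 in wild type. A second set of ubiquitin probe sets gave 1.375 and 1.541 in coi1 and 1.337 and 1.305 in wild type. Both ratios were higher on both coi1 arrays, whereas the ratios of actin and GAPDH overlapped between the genotypes, and the part of RNA quality in the results was not tested. In bulk leaf RNA, fewer cells of a type and less RNA per cell cannot be told apart.

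Most of the leaf transcriptome did not pass a test between coi1 and wild type at this precision, and the differences furthest from 0 were losses of signal in coi1. Among called probe sets that name 1 gene, the lowest differences were those of JRG21 and AT5G05600, oxygenases that inactivate jasmonate, and of AT1G52000, a lectin gene. Of 12184 probe sets tested, 123 passed at a Benjamini-Hochberg adjusted p under 0.05 in limma, or 1.01%. They divided into 76 lower in coi1 (0.624%) and 47 higher (0.386%). The called probe sets that were lower had a median log2 difference, coi1 minus wild type, of -1.67 and reached -3.77, while those that were higher had a median of 1.14 and reached 3.15. The median over all tested probe sets was 0.04. The 2 genotypes did not overlap in any of the 123, nor in 5953 of all tested probe sets (48.9%), so with 2 arrays a side this adds little to the test. Only 23 of the lower and 18 of the higher probe sets name exactly 1 gene, and 48 and 28 name none. Standard errors of these log2 differences had a median of 0.21, and without the correction for multiple tests 1745 probe sets stood at a p under 0.05.

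**Figure D1:**
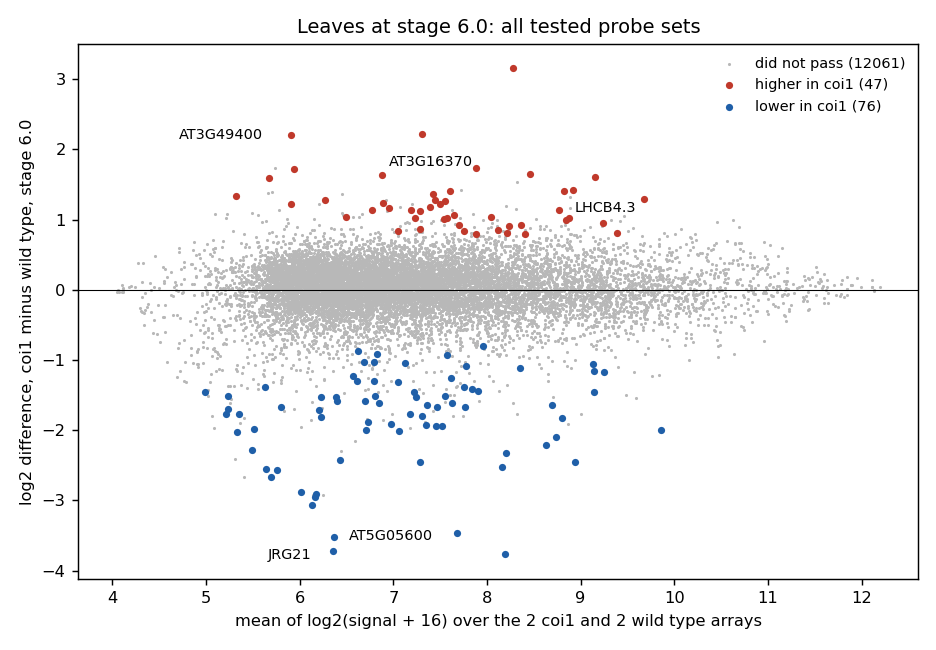
Log2 difference between coi1 and wild type at stage 6.0 (vertical axis, coi1 minus wild type) against the mean of log2(signal + 16) over the 4 arrays (horizontal axis), 1 point per tested probe set. The 76 probe sets lower in coi1 (blue) reach -3.77 and the 47 higher (red) reach 3.15; named points are genes described in the text and the 2 extremes name no single gene.

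The count depends on each coi1 array. Without coi1 array 1, 13 probe sets passed, and without coi1 array 2, 14 passed. Without wild type array 1, 84 passed, and without array 2, 119 passed. When arrays were scaled to the spiked hybridisation controls in place of the trimmed mean, 121 probe sets were lower and 11 higher. The geometric mean of these controls, used for that scaling, was 132.6 and 251.9 on the coi1 arrays and 160.9 and 176.9 on the wild type arrays. The scaling thus moves the 2 coi1 arrays apart from each other more than the 2 wild type arrays.

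Among called probe sets that name 1 gene, the lowest log2 differences were those of JRG21 and AT5G05600, which inactivate jasmonate. The list of jasmonate turnover holds 10 genes, of which 3 were tested. Of these 2 were lower in coi1, against 0.624% of all tested probe sets, and 0 were higher. The median log2 difference of the 3 was -3.51 against 0.04 over all probe sets. These members belong to the 2-oxoglutarate-dependent oxygenases that hydroxylate jasmonic acid, and the family is known to be induced by jasmonate itself. JRG21 (AT3G55970) had signals of 6.13 and 6.85 in coi1 and of 521.7 and 148.2 in wild type. Both coi1 values lay below the lower quartile of their arrays, 13.3 and 12.5, and far below either wild type array. The log2 difference of JRG21 was -3.72 ± 0.48 (SE, n = 2 arrays per group, adjusted p = 0.00692). Its sister gene AT5G05600 had signals of 8.04 and 8.86 in coi1 and of 347.8 and 198.5 in wild type, again with a wide gap between the genotypes. The log2 difference of AT5G05600 was -3.51 ± 0.31 (adjusted p = 0.00237), and the gene passed on leaving out any 1 of the 4 arrays (adjusted p from 0.00117 to 0.0384). JRG21 did not pass without coi1 array 1 (adjusted p = 0.0872) or array 2 (adjusted p = 0.0857).

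The size of these folds is not fixed by the data, since 16 was added to each signal before taking logs and the coi1 signals were smaller than that. With 1 added, JRG21 stood at -5.22 and AT5G05600 at -4.80, and with 64 added at -2.32 and -2.18. The ratio of mean signals, wild type over coi1, was 51.6 for JRG21 and 32.3 for AT5G05600. The remaining tested oxygenase, AT2G38240, had signals of 33.9 and 25.8 in coi1 and of 391.5 and 86.0 in wild type. The genotypes did not overlap, but the wild type arrays differed widely from each other. AT2G38240 measured -2.16 ± 0.55 and did not pass (adjusted p = 0.1); it passed without wild type array 2, at -3.16 (adjusted p = 0.00941). AT3G11180, also named among these oxygenases, was not tested, with signals of 9.25 and 11.7 in coi1 and of 9.26 and 14.8 in wild type.

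Among jasmonate-responsive defence genes 1 of 6 tested members was lower in coi1, against 0.624% of all tested probe sets, and 0 were higher. The list holds 27 genes, most of which have no named probe set here. The median log2 difference of the 6 was -1.54, and 5 lay below 0. In a fit over the 4 compared arrays 4 of the 6 passed as lower, against 0.739% of all probe sets. Over the 8 arrays of stage 6.0 4 passed also, against 1.44%. With 1 added, and without a filter, 0 of the 6 passed. OSM34, an osmotin-like protein of the PR5 family, had signals of 35.5 and 65.8 in coi1 and of 208.9 and 250.3 in wild type. The ranges were well apart, and the log2 difference was -1.92 ± 0.30 (adjusted p = 0.0155). OSM34 did not pass with 1 added (adjusted p = 0.237) or without coi1 array 1 (0.184), coi1 array 2 (0.0569) or wild type array 2 (0.0597).

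The defensin gene PDF1.2, the classical marker of joint jasmonate and ethylene signalling, had signals of 7.74 and 16.3 in coi1 and of 239.1 and 155.6 in wild type. Every coi1 value was far below every wild type value. PDF1.2 measured -2.92 ± 0.67 and did not pass (adjusted p = 0.0678). The spread in that test is shared by all 10 arrays, and the 2 stage 3.9 arrays, of different stock codes, read 1276.8 and 167.1. In a fit over the 4 compared arrays PDF1.2 passed (adjusted p = 0.00978), and in a fit over the 8 arrays of stage 6.0 also (adjusted p = 7.97e-04). Over all 10 arrays it did not pass without a filter (adjusted p = 0.185) or with 64 added (0.191). The near-identical PDF1.2b measured -2.29 ± 0.58 (adjusted p = 0.0947), with 16.4 and 31.6 in coi1 and 213.5 and 144.7 in wild type. Near-identical defensin transcripts can bind the same probes, so these genes are not independent of each other. The lectin-like gene AT3G16530 measured -1.17 ± 0.36 (adjusted p = 0.166) and the methyltransferase gene BSMT1 -1.15 ± 0.44 (adjusted p = 0.268). The thionin gene THI2.1, known as a jasmonate-inducible antimicrobial peptide gene, had signals of 17.1 and 27.6 in coi1 and of 10.7 and 27.2 in wild type, which overlap.

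The tested genes of jasmonate synthesis and of the signalling core did not pass. AIM1, a beta-oxidation enzyme of the synthesis pathway, measured -0.07 ± 0.19 (adjusted p = 0.905). OPCL1, the ligase that activates the precursor for beta-oxidation, had signals of 176.2 and 205.1 in coi1 and of 249.4 and 294.7 in wild type, and measured -0.48 ± 0.22 (adjusted p = 0.357). The transcription factor genes MYC3 and MYC4 measured -0.71 ± 0.26 (adjusted p = 0.251) and -0.27 ± 0.20 (adjusted p = 0.583). These 4 genes are a small part of both lists, of 21 and 22 genes, since most members have no named probe set here. The list of glucosinolates, sulfur-rich defence compounds whose synthesis MYC factors promote, holds 30 genes. Of its 4 tested genes 0 passed and the median was -0.56. UGT74B1, a glucosyltransferase of the core pathway, read 121.5 and 110.5 in coi1 and 189.1 and 229.1 in wild type. It measured -0.77 ± 0.19 (adjusted p = 0.0835), and the transporter gene GTR2 -0.51 ± 0.17 (adjusted p = 0.218).

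Further genes that were lower in coi1 encode a lectin, oxidases, lipases and small defence proteins. AT1G52000, which encodes a jacalin-like lectin, had signals of 57.6 and 44.2 in coi1 and of 214.0 and 297.0 in wild type. AT2G34810, a berberine bridge enzyme-like oxidase, had signals of 65.4 and 82.8 in coi1 and of 394.5 and 270.6 in wild type. In both genes the highest coi1 array stayed far under the lowest wild type array of stage 6.0. Wild type of stage 3.9 read 68.4 and 67.6 for AT2G34810, within the coi1 range, and 171.2 and 134.7 for AT1G52000, above it. The log2 differences were -2.01 ± 0.21 for AT1G52000 and -1.93 ± 0.20 for AT2G34810 (adjusted p = 0.00237 each). With AT5G05600 these are the 3 genes of the 23 that passed whichever of the 4 arrays was left out.

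AT2G39420, of the alpha/beta hydrolases that resemble monoacylglycerol lipases, had signals of 81.6 and 74.0 in coi1 and of 402.6 and 290.6 in wild type. AT2G43530, a small cysteine-rich protein of the defensin-like group, had signals of 104.8 and 65.8 in coi1 and of 322.2 and 278.7 in wild type. The genotypes were again apart, and the log2 differences were -1.93 ± 0.23 (adjusted p = 0.0048) and -1.67 ± 0.22 (adjusted p = 0.00693). AT2G39420 did not pass without coi1 array 1 (adjusted p = 0.0561) or 2 (0.0656), and AT2G43530 did not pass without coi1 array 2 (0.0857). AT1G25400 measured -1.46 ± 0.18 (adjusted p = 0.005), with 66.2 and 82.3 in coi1 and 243.1 and 219.2 in wild type, and did not pass without coi1 array 1 (0.0872).

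Enzymes of the cell wall, of sugar release and of redox repair were also among the 15 lowest. AT1G62660, a vacuolar acid invertase that splits sucrose, had signals of 103.3 and 90.5 in coi1 and of 472.2 and 227.5 in wild type, and measured -1.61 ± 0.28 (adjusted p = 0.0239). ADPG1, a polygalacturonase that loosens pectin in dehiscing and abscising tissue, had signals of 14.5 and 16.1 in coi1 and of 118.4 and 57.4 in wild type, and measured -1.67 ± 0.32 (adjusted p = 0.0413). Neither pair of ranges overlapped, though wild type array 1 read well above array 2 in each. MSRB9, a methionine sulfoxide reductase that repairs oxidised proteins, read 62.8 and 84.4 in coi1 and 225.4 and 256.4 in wild type, a difference of -1.53 ± 0.28 (adjusted p = 0.0313). The remaining genes of the 15 were AT1G30700 (-1.80 ± 0.32), a berberine bridge enzyme-like oxidase, AT4G29700 (-1.77 ± 0.27), of the alkaline phosphatase-like group, and AT3G50280 (-1.51 ± 0.26), an HXXXD-type acyltransferase. The mean coi1 signals of ADPG1, AT4G29700 and AT3G50280 lay below the added 16, on which the size of their folds depends. AT1G62660, AT1G30700, AT4G29700 and ADPG1 passed on leaving out wild type array 2, not on leaving out any other of the 4 arrays, where adjusted p ran from 0.0651 to 0.293. MSRB9 and AT3G50280 did not pass on leaving out any of the 4 (adjusted p from 0.0569 to 0.294).

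**Figure D2:**
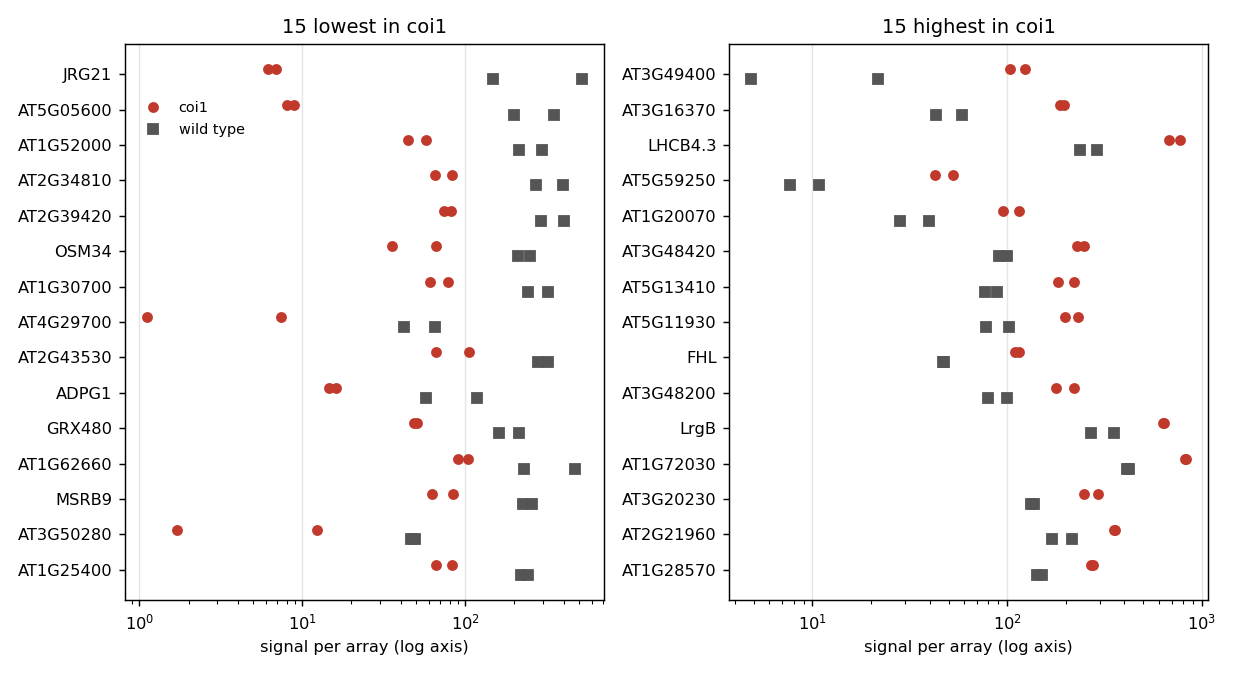
Signal on each coi1 array (red circles) and each wild type array of stage 6.0 (grey squares), on a log axis, for the 15 called genes that were lowest in coi1 (left) and the 15 that were highest (right). The 2 genotypes do not overlap in any of the 30 genes, which is part of how they were chosen; JRG21 reads 6.13 and 6.85 in coi1 against 521.7 and 148.2 in wild type.

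Called genes outside the 15 lowest were named after their values were seen. They include the peroxidase gene AT2G37130 (-1.11 ± 0.21, adjusted p = 0.0349) and the beta-glucosidase gene BGLU16 (-0.91 ± 0.18, adjusted p = 0.0461). The GDSL lipase-like gene AT2G03980 (-1.41 ± 0.23, adjusted p = 0.0164) and AT4G20830 (-0.92 ± 0.18, adjusted p = 0.0397), another berberine bridge enzyme-like gene, were also lower. None of these passed when scaled to the hybridisation controls. The rest were AT5G59480 (-1.39 ± 0.28), AT1G63980 (-1.31 ± 0.26), AT4G32870 (-1.03 ± 0.21) and AT5G49280 (-0.8 ± 0.16). Because of AT2G34810, AT1G30700 and AT4G20830 this oxidase family was then counted as a whole, a choice that also followed from the values. Of its 10 tested members 3 were lower in coi1, against 0.624% of all tested probe sets, and 0 were higher. The 3 are those that led to the choice, so this count is no separate support. Of the 10, 9 lay below 0, with a median of -0.67 against 0.04 over all tested probe sets. With each of the 3 scalings 9 lay below 0, and with that to the hybridisation controls 2 passed. The lowest of the uncalled members was AT1G26380 at -0.84 ± 0.28 (adjusted p = 0.207), and AT5G44410 at 0.18 ± 0.31 was the member above 0. Of 4 tested jacalin-like lectin genes AT1G52000 was the only one lower, while AT1G73040 read 391.7 and 299.0 in coi1 and 203.4 and 153.2 in wild type (0.90 ± 0.23, adjusted p = 0.095).

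The ein2 and NahG arrays of the same stage show how far these low signals set coi1 apart from other hormone-related genotypes. The comparisons with ein2 and NahG use the same coi1 arrays, so they are not independent of the one with wild type. Between coi1 and ein2 86 probe sets passed (0.706%), of which 42 were lower in coi1 (0.345%) and 44 higher (0.361%). Between coi1 and NahG 1343 passed (11.0%), of which 613 were lower in coi1 (5.03%) and 730 higher (5.99%). Without coi1 array 1 and without array 2 these counts were 11 and 15 for ein2 and 592 and 619 for NahG.

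JRG21 and AT5G05600 were lower in coi1 than in each of the other 3 genotypes of stage 6.0. JRG21, at 6.13 and 6.85 on the coi1 arrays, read 247.3 and 404.9 on the ein2 arrays and 1074.5 and 814.4 on the NahG arrays. Its log2 difference was -3.89 ± 0.48 against ein2 (adjusted p = 0.00464) and -5.40 ± 0.48 against NahG (adjusted p = 4.75e-05). AT5G05600, at 8.04 and 8.86 on the coi1 arrays, read 239.3 and 295.2 on the ein2 arrays and 991 and 679.7 on the NahG arrays, with -3.53 ± 0.31 against ein2 (adjusted p = 7.91e-04) and -5.10 ± 0.31 against NahG (adjusted p = 3.68e-06). NahG arrays thus read higher than ein2 arrays in both genes, and coi1 arrays stood far below both. The lectin gene AT1G52000 was lower in coi1 than in ein2, at -2.30 ± 0.21 (adjusted p = 9.82e-04), and so was the defensin-like AT2G43530, at -2.79 ± 0.22 (adjusted p = 7.91e-04). AT2G34810 measured -1.34 ± 0.20 against ein2 (adjusted p = 0.0139) and -2.13 ± 0.20 against NahG (adjusted p = 7.15e-05). AT3G50280 also passed against both, at -2.11 ± 0.26 (adjusted p = 0.00464) and -1.10 ± 0.26 (adjusted p = 0.0208). Only the ein2 arrays, at 89.1 and 72.8, brought AT3G50280 to the signal needed for a test. Its difference from ein2 is therefore not independent of that selection.

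For other genes the difference between coi1 and ein2 did not pass. OSM34, at 35.5 and 65.8 on the coi1 arrays, read 62.7 and 81.2 on the ein2 arrays and 1682.3 and 1506.6 on the NahG arrays. The higher coi1 array lay above the lower ein2 array, and the difference of -0.43 ± 0.30 did not pass (adjusted p = 0.503), which does not show that the 2 mutants are alike. PDF1.2, at 7.74 and 16.3 on the coi1 arrays, read 20.7 and 5.64 on the ein2 arrays and 4246.1 and 4021.1 on the NahG arrays. The coi1 and ein2 values again overlap, at -0.03 ± 0.67 (adjusted p = 0.989), while against NahG the difference was -7.23 ± 0.67 (adjusted p = 5.69e-05). ADPG1 measured 0.15 ± 0.32 against ein2 (adjusted p = 0.851), AT1G30700 -0.38 ± 0.32 (adjusted p = 0.581) and the peroxidase gene AT2G37130 -0.15 ± 0.21 (adjusted p = 0.758).

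For a further set the difference between coi1 and NahG, the line that degrades salicylic acid, did not pass. GRX480, a glutaredoxin known to be induced by salicylic acid and the 1 tested gene of the salicylic acid list, was lower in coi1 than in wild type. It read 48.3 and 50.8 on the coi1 arrays and 40.9 and 30.5 on the NahG arrays, against 198.1 and 333.2 for ein2 and 160.3 and 213.5 for wild type. The coi1 and NahG arrays were below all ein2 and wild type arrays of stage 6.0. Wild type of stage 3.9 read 37.7 and 55.8, on either side of the coi1 values. GRX480 measured -1.62 ± 0.25 against wild type (adjusted p = 0.0153), -2.06 ± 0.25 against ein2 (adjusted p = 0.00454) and 0.35 ± 0.25 against NahG (adjusted p = 0.442). Against wild type it passed without wild type array 1, and did not pass without coi1 array 1 (0.164), coi1 array 2 (0.139) or wild type array 2 (0.0657). MSRB9, at 62.8 and 84.4 on the coi1 arrays, read 61.4 and 60.0 with NahG and 217.9 and 240.6 with ein2, and measured 0.21 ± 0.28 against NahG (adjusted p = 0.706). AT2G39420 measured -0.44 ± 0.23 against NahG (adjusted p = 0.266) and AT1G25400 -0.12 ± 0.18 (adjusted p = 0.74). These missed thresholds do not show equal levels.

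**Figure D3:**
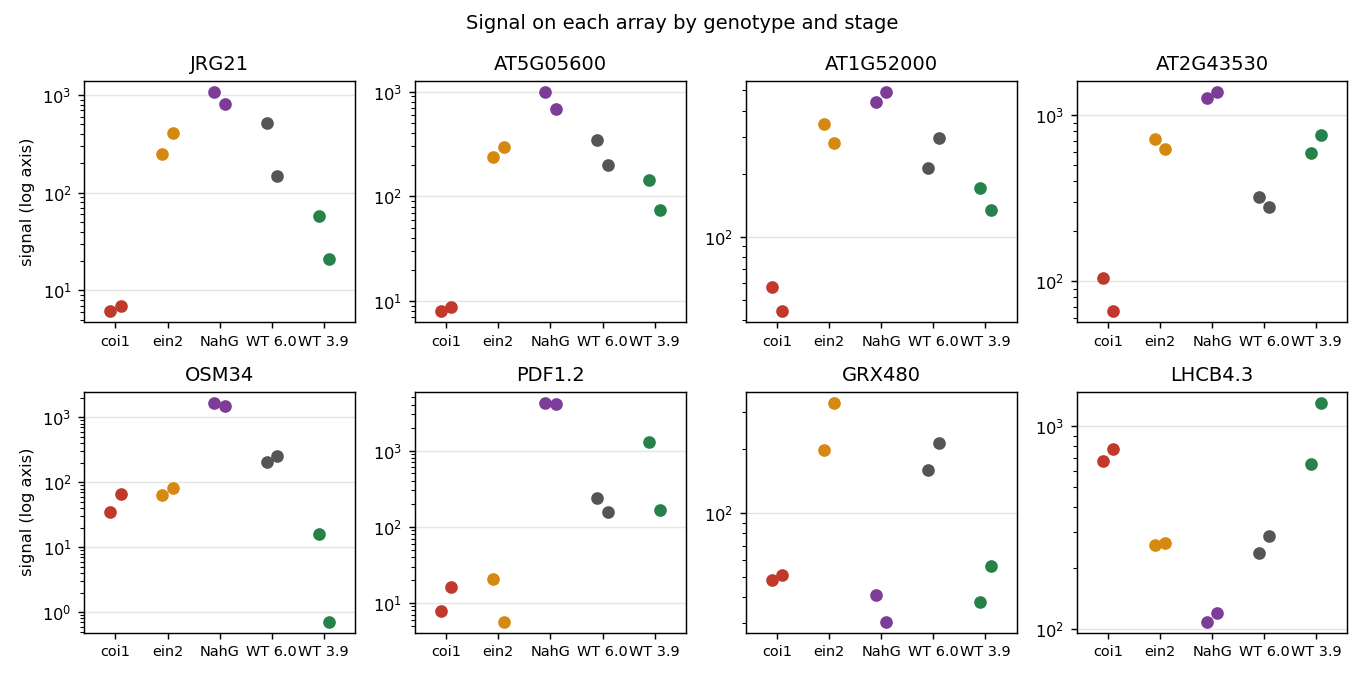
Signal on each of the 10 arrays, on log axes with a separate range per gene, for 8 genes in coi1, ein2 and NahG at stage 6.0 and in wild type (WT) at stages 6.0 and 3.9, 2 points per group. JRG21, AT5G05600, AT1G52000 and AT2G43530 have their lowest points in coi1. At stage 6.0 the OSM34 and PDF1.2 points of coi1 and ein2 lie below those of NahG and WT, the GRX480 points of coi1 and NahG lie below those of ein2 and WT, and the LHCB4.3 points of coi1 lie above the rest.

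Genes that were higher in coi1 included LHCB4.3, LrgB, AT3G48420 and AT5G59250. LHCB4.3, a minor antenna protein of photosystem II, had signals of 673.1 and 773.5 in coi1 and of 237.1 and 288.4 in wild type. Both coi1 arrays were far above the wild type arrays, and the log2 difference was 1.41 ± 0.27 (adjusted p = 0.0405). LrgB (AT1G32080), the plastid transporter of glycolate and glycerate in photorespiration, read 628.7 and 635.3 in coi1 and 268.3 and 354.8 in wild type (1.0 ± 0.19, adjusted p = 0.0416). AT3G48420, a chloroplast sugar phosphatase of the CbbY type, read 246.4 and 227.0 in coi1 and 90.9 and 100 in wild type (1.18 ± 0.19, adjusted p = 0.0164). AT5G59250, a plastid sugar transporter, had signals of 52.5 and 42.5 in coi1 and of 7.65 and 10.8 in wild type, a difference of 1.33 ± 0.23 whose size depends on the added 16. In each of these genes both coi1 arrays lay above both wild type arrays of stage 6.0. Wild type of stage 3.9 read higher still for LrgB (1056.1 and 1360.0), AT3G48420 (596.4 and 851.3) and AT5G59250 (180.7 and 236.5). For LHCB4.3 it read 654.8 and 1307.5, on either side of the coi1 values. Whether the leaves of coi1 and wild type had aged equally was not tested, which bears on the lower genes as well. Among those, wild type of stage 3.9 read below coi1 for OSM34 (15.8 and 0.71) and above it for JRG21 (58.3 and 21.0). LHCB4.3 and AT5G59250 did not pass on leaving out any 1 of the 4 arrays (adjusted p from 0.0508 to 0.272), and LrgB and AT3G48420 passed on leaving out wild type array 2 but none of the others (0.0888 to 0.289).

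The highest differences among genes with 1 name were those of AT3G49400 and AT3G16370. AT3G49400 had signals of 103.1 and 123.3 in coi1, against 21.8 and 4.83 in wild type, 12.1 and 11.4 in ein2 and 20.5 and 27.6 in NahG. The coi1 arrays were the only ones above 100 among the 10. The log2 differences were 2.2 ± 0.32 against wild type (adjusted p = 0.0118) and 2.22 ± 0.32 against ein2 (adjusted p = 0.0108). Only the coi1 arrays brought AT3G49400 to the signal needed for a test, as every other array read 27.6 or less. The filter thus admitted this gene only because it was high in coi1, and both passes depend on that selection. Without a filter AT3G49400 still passed against wild type (adjusted p = 0.0398). AT3G16370, a GDSL lipase-like protein, had signals of 186.7 and 195.2 in coi1 and of 43.1 and 58.8 in wild type (1.64 ± 0.21, adjusted p = 0.00607). The wild type mean of AT3G49400 was below the added 16, and its difference was 3.30 with 1 added and 1.2 with 64 added. Signals of AT3G16370 were 144.1 and 107.5 in ein2 and 179.3 and 163.7 in NahG, and coi1 passed against neither (adjusted p = 0.225 and 0.734). In wild type of stage 3.9 this gene read 2155.7 and 2847.1, far above coi1. Both genes passed without either wild type array but not without coi1 array 1 (adjusted p = 0.135 and 0.0824) or array 2 (0.152 and 0.0857).

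Other genes among the 15 highest had smaller differences. FHL, a partner in the nuclear import of phytochrome A, read 115.2 and 110.2 in coi1 and 47.4 and 46.7 in wild type (1.03 ± 0.20, adjusted p = 0.0439). FHL read 103.4 and 119.5 in ein2, on either side of the coi1 values, and 58.8 and 33.6 in wild type of stage 3.9, below them. The glutaredoxin AT5G11930 read 197.1 and 230.2 in coi1 and 78.2 and 102.5 in wild type, and 72.3 and 50.2 in NahG, so it was higher where GRX480 of the same protein family was lower. Its log2 difference was 1.12 ± 0.20 (adjusted p = 0.0263). Of the 8 tested CC-type glutaredoxins, a family counted after its values were seen, 1 was higher and 1 lower. Over all tested probe sets the shares were 0.386% and 0.624%. The FKBP-like isomerase gene AT5G13410 (1.14 ± 0.22), the acetyltransferase-like gene AT1G72030 (0.96 ± 0.18), the lipase-like AT1G28570 (0.83 ± 0.16) and AT1G20070 (1.28 ± 0.20), AT3G48200 (1.02 ± 0.21), AT3G20230 (0.92 ± 0.18) and AT2G21960 (0.84 ± 0.17) complete the 15.

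Outside the 15, 3 more genes were higher and are named after their values were seen. AT1G74730, known for organising thylakoid grana, measured 0.79 ± 0.16, with 420.1 and 439.7 in coi1 and 245.6 and 236.8 in wild type. AT5G07020, a maintenance factor of photosystem II, measured 0.80 ± 0.16, and AT5G38520, a chlorophyll dephytylase, 0.80 ± 0.16. In wild type of stage 3.9 each of the 3 read above both coi1 arrays, AT1G74730 at 1189.4 and 1222.1. None of the 18 higher genes passed without coi1 array 1 or without coi1 array 2, and 3 and 5 passed without wild type array 1 and without array 2. Scaled to the hybridisation controls, AT3G49400 (adjusted p = 2.07e-05) and AT3G16370 (0.0396) passed, and the others named here did not.

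Of 11 tested photosynthesis genes 1 was higher in coi1, against 0.386% of all tested probe sets, and 0 were lower. The list holds 50 genes, most of which have no named probe set here. The fitted differences of the 11 lay above 0, from 0.19 to 1.41, with a median of 0.31 against 0.04 over all probe sets, and LHCB4.3 was the called member. The 11 stayed above 0 after quantile normalization and when scaled to the hybridisation controls, where the median was 0.20 and 0 passed, and 9 of 11 were above 0 without coi1 array 2. PRK, phosphoribulokinase of the Calvin cycle, read 1933.4 and 2264.8 in coi1 and 1152.7 and 1509.0 in wild type, a gap of 0.66 ± 0.19 (adjusted p = 0.147). SBPASE, sedoheptulose bisphosphatase of the same cycle, read 1513.3 and 1887.5 in coi1 and 954.6 and 1233.5 in wild type (0.63 ± 0.19, adjusted p = 0.161). In both genes the coi1 arrays were above the wild type arrays, while PSBW at 0.19 ± 0.24 and LHCB4.2 at 0.19 ± 0.33 overlapped. The median signal of the 11 genes was 1647.7 and 1887.5 on the coi1 arrays, 1190.4 and 1150.4 on the ein2 arrays, 1496.5 and 1428.1 on the NahG arrays and 1072.3 and 1375.8 on the wild type arrays of stage 6.0. At stage 3.9 it was 4459.2 and 3562.4, above every array of stage 6.0.

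**Figure D4:**
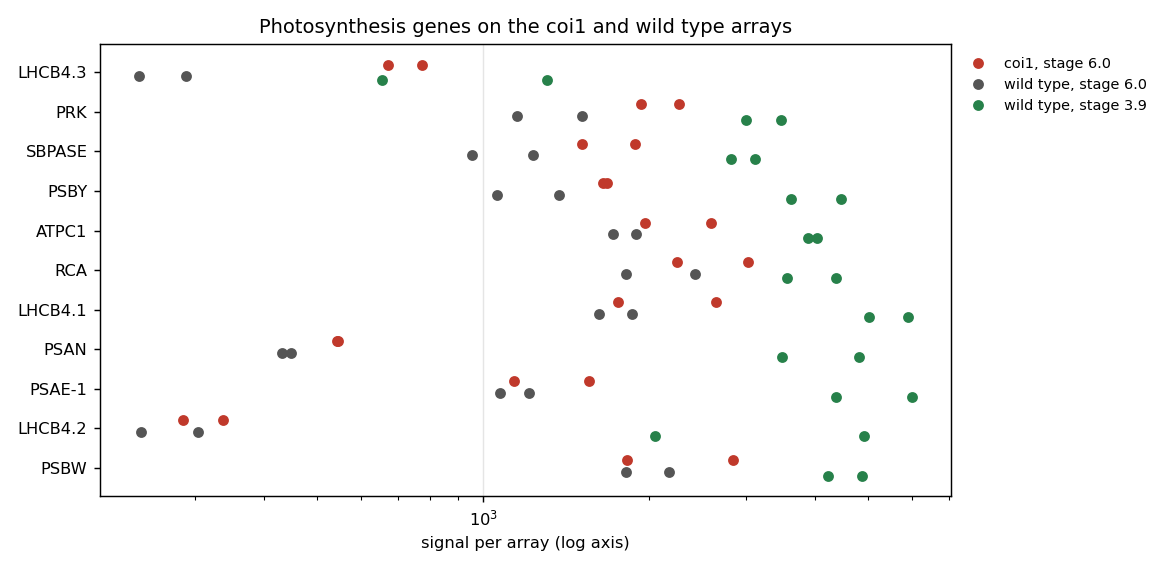
Signal on each array (log axis) of the 11 tested photosynthesis genes in coi1 at stage 6.0 (red) and in wild type at stage 6.0 (grey) and stage 3.9 (green), 2 points per group, ordered by the fitted difference between coi1 and wild type at stage 6.0. LHCB4.3, at the top, is the gene that passed, and its coi1 values of 673.1 and 773.5 lie near the lower stage 3.9 value of 654.8.

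Of 69 tested transcripts encoded by the plastid genome 0 passed, 49 lay below 0 and the median was -0.27. Their median signal was 628.4 and 628.7 on the coi1 arrays and 615.8 and 1096.8 on the wild type arrays, and they also differed within genotypes at 1174.5 and 627.3 on the ein2 arrays and 1043.8 and 667.8 on the NahG arrays. Without wild type array 1 the median was -0.63 and 3 passed, and without wild type array 2 it was 0.04, 42 of 69 lay above 0 and 0 passed. When scaled to the hybridisation controls 5 passed as lower and the median was -0.38.

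Lists of genes that mark ageing leaves held 0 called genes, which at 1.01% called over all probe sets says little about lists of this size. Of 4 tested senescence-associated genes 0 passed, with a median of -0.50. SAG29, a sugar transporter of senescing leaves, read 143.3 and 166.4 in coi1 and 851.6 and 166.1 in wild type. Its wild type array 2 fell within the coi1 range, and the difference of -1.22 ± 0.52 did not pass (adjusted p = 0.323). The transcription factor gene WRKY53 measured -0.48 ± 0.23 (adjusted p = 0.38), WRKY6 0.05 ± 0.19 (adjusted p = 0.942) and SAG101 -0.53 ± 0.22 (adjusted p = 0.313). Of 11 autophagy genes 0 passed, with a median of -0.05. ATG8H, a ubiquitin-like protein of the autophagosome, read 133.5 and 130.8 in coi1 and 513.0 and 198.2 in wild type, a difference of -1.18 ± 0.41 (adjusted p = 0.221). Among 6 vacuolar and cysteine proteases 0 passed, and BETA-VPE, a vacuolar processing enzyme, measured 0.57 ± 0.18 (adjusted p = 0.18).

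Flavonoid and anthocyanin genes, whose induction by added jasmonate is well known, did not pass in any of 6 tested cases, from a list of 21. Their differences ran from -0.26 to 0.17 with a median of 0.05. The median was -0.05 when scaled to the hybridisation controls, -0.26 without wild type array 1 and 0.29 without array 2. DFR, dihydroflavonol reductase, read 1674.3 and 1945.0 in coi1 and 1569.8 and 2013.8 in wild type, with the coi1 values inside the wild type range (0.02 ± 0.21, adjusted p = 0.981). Of 3 genes of ethylene signalling 0 passed, RTE1 measuring 0.48 ± 0.17 (adjusted p = 0.234) and ARL -0.21 ± 0.28 (adjusted p = 0.769). Nutrient remobilisation (3 genes, median 0.09), abscisic acid, cold and drought (3 genes, median -0.22), clock (3 genes, median 0.13) and chlorophyll breakdown (NOL, 0.09 ± 0.18) also had 0 genes that passed. COR15A, a cold-induced chloroplast protein, measured -0.71 ± 0.38 (adjusted p = 0.432) and the clock gene GI 0.44 ± 0.37 (adjusted p = 0.63).

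**Figure D5:**
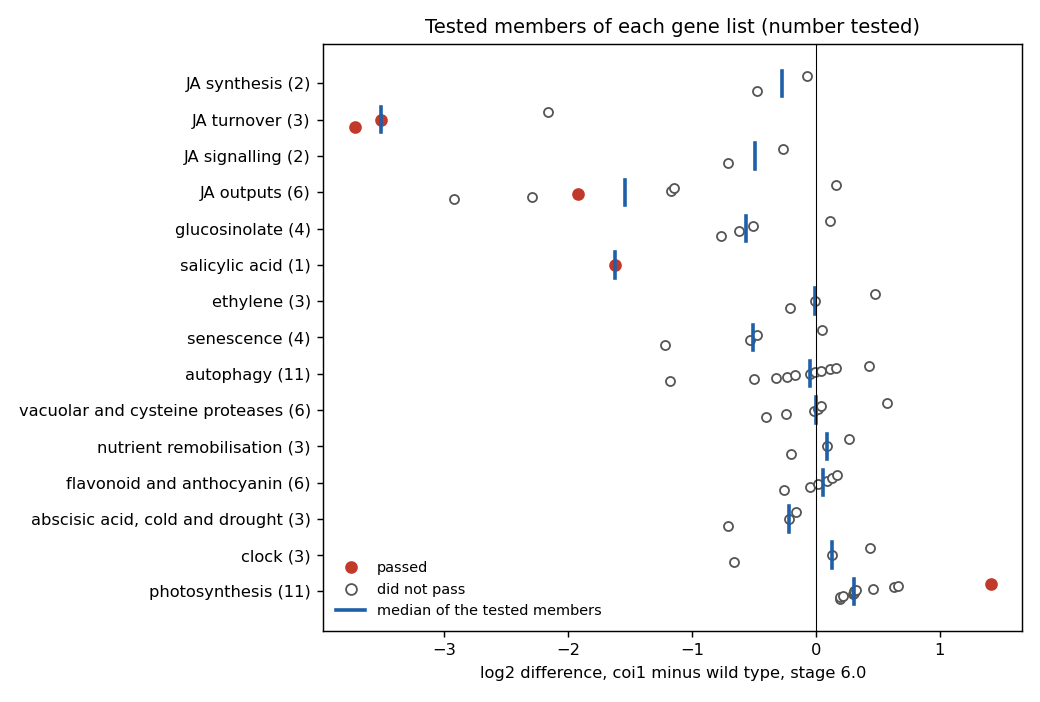
Log2 difference, coi1 minus wild type at stage 6.0, of each tested member of 15 gene lists (filled red circles passed, open circles did not, blue bars are list medians, numbers tested in brackets). The lowest members belong to jasmonate (JA) turnover, with a median of -3.51, and the photosynthesis members all lie right of 0, with a median of 0.31.

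Markers of other cell types gave little to compare. GASA9 (AT1G22690), the tested guard cell marker, read 54.0 and 64.4 in coi1 and 23.6 and 57.8 in wild type, which overlap (0.47 ± 0.28, adjusted p = 0.487). The guard cell gene FAMA (FMA) read 44.7 and 40.3 in coi1 and 19.2 and 43.1 in wild type, and the trichome gene TRY read 11.5 and 8.06 in coi1 and 3.42 and 11.8 in wild type, both below the level needed for a test. Markers of vascular, floral and dividing cells, and genes of sulfur assimilation and heat shock, have no named probe set here and were not analysed.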

How the data were processed

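Leaf RNA was measured on 10 one-colour arrays. The deposited intensity values are linear MAS5 signals, per the submitters' processing notes (no version is given), with no detection calls. Signals were rescaled so that every array had a 2% trimmed mean of 100 without the 64 control probe sets. Probe sets at 50 or more on at least 2 arrays were tested (12184). Log2(signal + 16) was fitted over all 10 arrays in 5 groups with limma 3.58.1 in R 4.3.3 (lmFit, eBayes with trend, 5 residual and 5.74 prior degrees of freedom) and adjusted by Benjamini-Hochberg. Values after ± are standard errors of log2 differences; the number of arrays limits the precision. The procedure was run on data simulated from its own fitted means and spreads, with changes set in probe sets of brighter wild type signal. Changes at low signal and errors shared within an array were not simulated.

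Probe sets were named from the platform annotation, with symbols updated through the TAIR10.1 annotation; 13513 probe sets name 1 gene, 503 several and 8730 none, and no coordinates or sequences were used. Named genes are the 15 lowest and 15 highest called probe sets of 1 gene without overlap between coi1 and wild type, every tested jasmonate list member, and up to 3 called members per direction of each other list, or 2 as values. Of 38 genes with several probe sets the brightest was used. The comparison, lists and alternatives were chosen with earlier results of these data known. Alternatives were other added constants, filters, scalings, sets of arrays, no trend, and leaving out each array. Figures were drawn with matplotlib 3.10.9 (python 3.11.15, pandas 2.3.3, numpy 2.4.6).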

Additional observations from a re-analysis of the deposited data

How the results depend on the processing

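None of the 41 called and named genes changed direction under any alternative run. The count of 123 between coi1 and wild type was 313 over the 8 arrays of stage 6.0, 37 without a filter and 13 to 119 on leaving out 1 array, and between 110 and 159 with other added constants, a floor of 100, the 4 compared arrays, no trend or the other scalings. Of the 41 named calls, 31 were lost without a filter, 23 when scaled to the hybridisation controls, 17 over the 4 compared arrays, 8 with 1 added and 0 over the 8 arrays of stage 6.0. Between coi1 and ein2 the count of 86 was 260 over the 8 arrays, 43 without a filter and 11 to 15 without a coi1 array. Between coi1 and NahG the count of 1343 was 581 when scaled to the hybridisation controls and 592 to 619 without a coi1 array. Array numbers in the titles are shared by coi1, ein2 and NahG but not by wild type, so no paired fit of the main comparison was made. Deviations of same-numbered arrays correlated at 0.216 between coi1 and ein2, 0.337 between ein2 and NahG and -0.133 between coi1 and NahG, so the numbers were not taken to pair the arrays. With the number as a replicate block over those 6 arrays the counts were 691 against ein2 and 2246 against NahG, where the same 6 arrays gave 445 and 1933 without it, a fit chosen after seeing the data. Leaving out 1 array leaves a group of 1, assumed to vary like the others. Signals below the added 16 carry little information on the size of a fold.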

Other observations

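The 2 wild type arrays of stage 6.0, which carry different stock codes, differed from each other in several genes described above. Array 1 read 851.6 and array 2 read 166.1 for SAG29, 391.5 and 86.0 for AT2G38240, 521.7 and 148.2 for JRG21, 72.4 and 16.6 for BSMT1 and 513.0 and 198.2 for ATG8H. Array 2 had the higher median signal of plastid-encoded transcripts (1096.8 against 615.8 on array 1). The 2 ein2 arrays, which share a stock code, also differed, at 51.7 and 160.1 for AT2G38240 and 117.6 and 256.2 for ATG8H. For SAG29 they were close, at 85.0 and 91.5. Their plastid medians were 1174.5 and 627.3. Wild type array 1 correlated at 0.973 with ein2 array 2, and wild type array 2 at 0.972 with ein2 array 1. The 2 wild type arrays correlated at 0.969 with each other. With 1 array per stock, a part of the stock in these differences was not tested.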
